A study of Homo sapiens with 2 samples.

Results

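This report describes 39 genes, the targets of the transcription factor p53 and the inhibitors of cyclin-dependent kinases (CDKs), chosen by name from the 26506 genes in the deposited tables. All 39 symbols were found, and 36 of them reached 1 CPM (the count relative to library size, after TMM scaling) in at least 1 library, as did 13632 genes in all. Poly(A) RNA came from human corneal epithelial cells, an established line (ATCC CRL-11515), grown for 72 hours either in keratinocyte serum-free medium (KSFM) or in the special medium. The special medium was DMEM/F12 with 1 mM calcium chloride, 10% fetal bovine serum, EGF at 10 ng/mL and an antibiotic and antimycotic mix. RNA from 3 cultures was pooled for each medium, which leaves 1 library for each, so no difference has a replicate check, a test or a p-value. As background that the labels do not state, this line was immortalised with the SV40 large T antigen, a viral protein that binds p53 and the RB family, and the viral transcript was not analysed here.

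In a cell with DNA damage or other stress, p53 is stabilised and switches on genes that halt the cell cycle, repair DNA, limit oxidative damage or start apoptosis, together with MDM2, which targets p53 for degradation and closes the loop. CDK inhibitors act next to that response: the CIP/KIP proteins bind cyclin-CDK complexes, and the INK4 proteins bind CDK4 and CDK6, which otherwise release E2F factors from RB. In stratified epithelia the same inhibitors also mark cells that leave the cycle to differentiate.

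In all, 21604652 counts fell on genes in the KSFM library, and 16900472 in that of the special medium. Each ratio divides the special medium by KSFM, and the range in parentheses after a fold is an exact 95% interval that covers counting error only. To be called, a gene needed 1 CPM or more in a library, a difference of 2-fold or more, and an interval that left out equality. Levels of different genes are compared in TPM, the deposited value per transcript length. Of 14 corneal epithelial markers 9 reached 1 CPM, and KRT15, TKT, KRT19 and ELF3 were called higher in the special medium, ELF3 the most with a log2 ratio of 3.30, and none lower. KRT5 (1779 and 921 counts) and CDH1 lay below equality short of the rule, with log2 ratios of −0.60 and −0.32. KRT14, TP63 and ALDH3A1 stayed below 1 CPM. The summed level of all 14 was 978 TPM in KSFM against 2271 TPM. Much of it was TKT (186 and 608 TPM) and KRT19 (186 and 729 TPM). Of 6 epidermal markers only KRT10 reached 1 CPM, and it was called lower (log2 ratio −2.23). The epithelial markers CDH1 and EPCAM were abundant in both media, with 10937 and 5732 counts in KSFM and 6849 and 5915 in the special medium. The corneal keratins that define the labelled cell type were nearly absent, with 0 and 1 counts for KRT3 and 0 in both libraries for KRT12. Of 24 markers of stroma, endothelium, immune cells and melanocytes, 7 reached 1 CPM, and CDH5 and CD14 were called higher and LYZ lower; the summed level of all 24 was 77.4 and 104 TPM. LUM, KERA, TEK, TYR and CD3E had 0 counts in both libraries, and the part of these marker differences in the results was not tested.

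The genes split in direction between the media. PLK2, FAS and PMAIP1 were called higher in the special medium and TP53INP1 was called lower. The other 32 of the 36 measured genes were within 2-fold. The call rule took in 9.86% of all 13632 genes upward and 6.77% downward. The 3 higher of 36 are thus close to the background share, and the 1 lower is below it. On deposited TPM with a pseudocount of 1 the split was 3 higher and 0 lower. The counting interval lay wholly above equality for 9 of the 36 genes (25.0%, against 37.2% of all genes) and wholly below it for 19 (52.8%, against 36.7%). The median log2 ratio of the 36 genes was −0.15, against −0.00042 over all genes tested. In bulk RNA, fewer cells that express a gene and less of its RNA per cell cannot be told apart.

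Below the 2-fold line the genes were uneven. Between log2 ratios of −1 and −0.5 lay 12 of the 36 genes (33.3%), against 13.7% of all genes tested. Between 0.5 and 1 lay 2 of them, DDB2 and CDKN2C (5.56%), against 12.4% of all genes. These bands were chosen after the values were seen. The 12 genes were TP53I3, CDKN1A, RRM2B, PLK3, CDKN2A, ZMAT3, AEN, SESN1, TRIAP1, CDKN2B, CDKN2D and TIGAR, and they come from 6 of the 7 roles into which the genes were sorted.

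**Figure D1:**
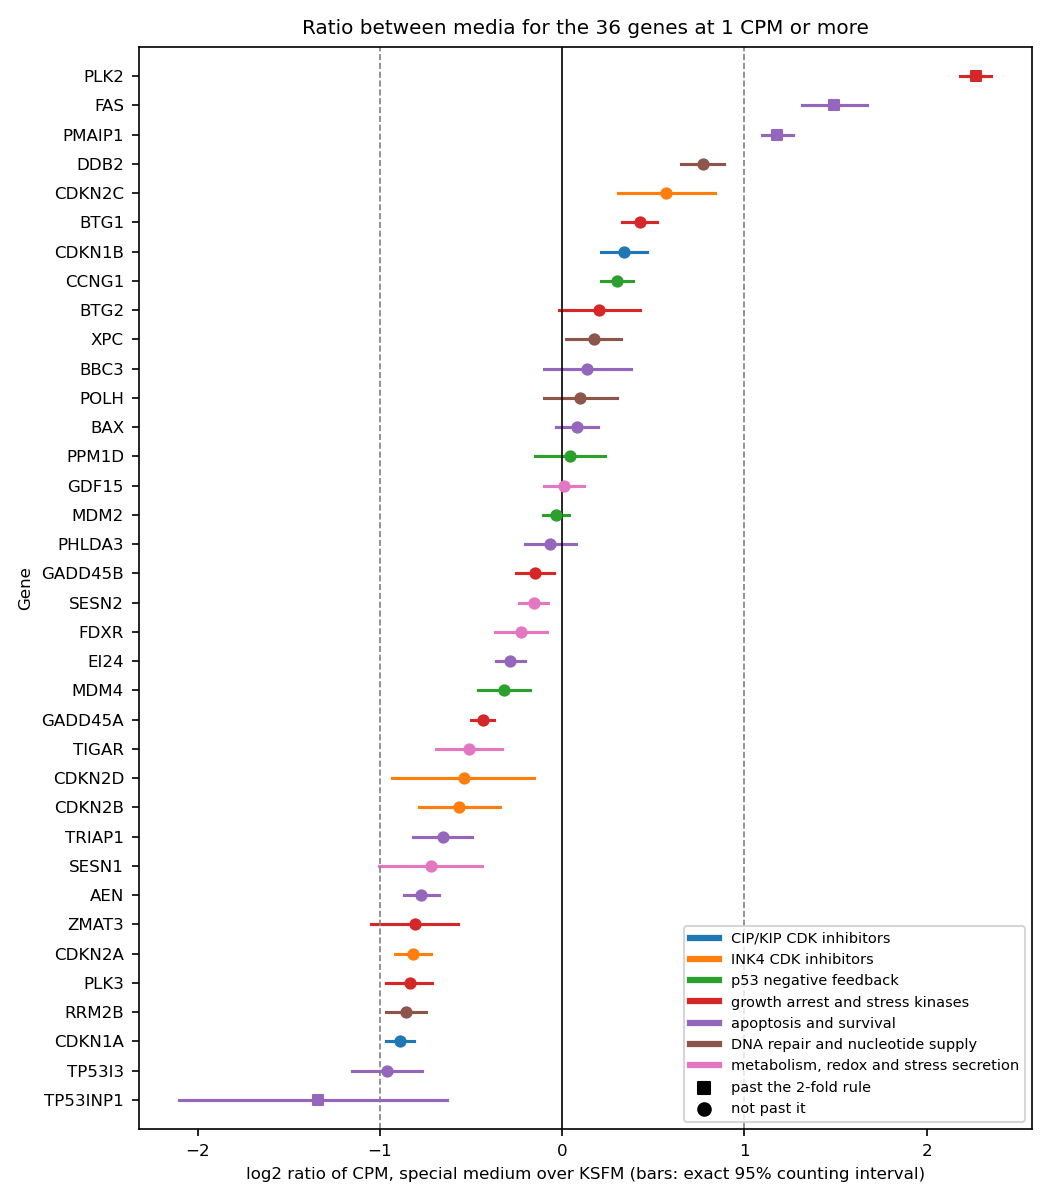
Log2 ratio of CPM (special medium over KSFM, x axis) for each of the 36 genes at 1 CPM or more (y axis), coloured by role; bars are exact 95% counting intervals, squares are genes past the 2-fold rule and dashed lines mark 2-fold. PLK2 lies furthest to the right at 2.27 and TP53INP1 furthest to the left at −1.34, with 12 genes packed between −1 and −0.5.

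**Figure D2:**
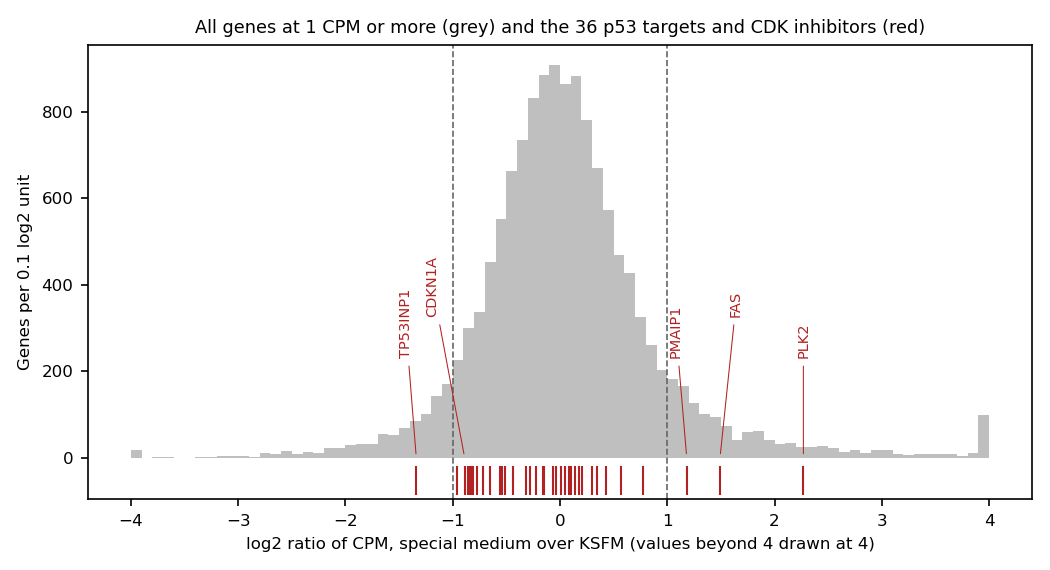
Distribution of log2 ratios of all 13632 genes at 1 CPM or more (grey; genes per 0.1 log2 unit, values beyond 4 drawn at 4) with the 36 p53 targets and CDK inhibitors as red ticks below; dashed lines mark 2-fold. The ticks lie inside the bulk of all genes apart from PLK2, FAS, PMAIP1 and TP53INP1, and crowd to the left of the centre.

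Promoters of 34 of the 39 genes were read from RefSeq (GRCh38.p14), all but those of CDKN1C, GADD45A, PHLDA3, TP53INP1 and RRM2B. The search covered 250 bases before to 50 after each gene start. It looked for the p53 response element, taken as 2 copies of its 10-base consensus separated by 0 to 13 bases, with at most 3 mismatches in 20 and the central C and G of both copies kept. Such a match stood in 9 of the 34 promoters, against 12.8% of 35116 promoters of the same length. The 9 were those of CDKN1B, CDKN2B, GADD45B, PLK2, ZMAT3, PMAIP1, AEN, FDXR and GDF15. A match is a description of letters, not a shown binding site, and elements that lie further away or inside introns fall outside this window. The sequences below run 5′ to 3′ on the gene's own strand, with the matched element in capitals. They are shown because PLK2 and PMAIP1 were called higher while AEN and FDXR had ratios below 1. Positions are counted from the RefSeq gene start. In GENCODE 29 the genes start 174 (PLK2), 48 (PMAIP1), 44 (AEN) and 37 (FDXR) bases further upstream, so the elements of PLK2, AEN and FDXR lie inside the annotated gene there, and for these a 30-base stretch is printed. For PMAIP1 the 202 bases before the GENCODE start are printed.
PLK2 (chr5:58460192-58460221, minus strand): acaAGACTTGCTTCCCGGCCACGCGCgctc
PMAIP1 (chr18:59899746-59899947, plus strand): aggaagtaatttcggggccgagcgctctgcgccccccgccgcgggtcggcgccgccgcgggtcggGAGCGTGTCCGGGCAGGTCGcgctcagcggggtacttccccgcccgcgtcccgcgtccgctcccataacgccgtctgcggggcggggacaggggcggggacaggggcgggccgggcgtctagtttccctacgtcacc
AEN (chr15:88621301-88621330, plus strand): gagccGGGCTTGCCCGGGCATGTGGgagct
FDXR (chr17:74872996-74873025, minus strand): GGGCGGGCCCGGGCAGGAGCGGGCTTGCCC

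The elements in PLK2 and PMAIP1 had 3 mismatches each and began 132 and 185 bases before the gene start. Those in AEN and FDXR had 2 mismatches each and began 34 and 31 bases before it. Genes with such an element had ratios on both sides of equality. The 9 genes with a match ran from −0.81 in ZMAT3 to 2.27 in PLK2, with a median of −0.15. The 23 measured genes with a promoter but no match ran from −0.96 to 1.49, with a median of −0.03. Of other motifs, searched on both strands, the GC box GGGCGG stood in 25 of the 34 promoters against 45% of all promoters. The E-box CACGTG stood in 6 (7.26% of all), the CHR element TTTGAA in 2 (15.2%) and the ATF4-CHOP composite core TGATGNAAN in 2 (3.61%).

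CDKN1A encodes p21, the CIP/KIP inhibitor through which p53 stops the cycle in G1. It had 4757 counts in KSFM against 2015 in the special medium, or 196 and 120 TPM. It was therefore lower in the special medium by 1.85-fold (1.76 to 1.95), short of the 2-fold rule. CDKN1B, which encodes p27, an inhibitor controlled largely by protein turnover, had 1041 and 1034 counts. After scaling, its level was slightly above that in KSFM, 1.27-fold (1.16 to 1.38), from 36.6 to 52.1 TPM. The 2 genes thus lay on opposite sides of equality with intervals that do not meet, and CDKN1A made up 84.0% of the summed CIP/KIP TPM in KSFM and 69.5% in the special medium. CDKN1C, the imprinted gene of p57, was scarce at 15 and 7 counts, and its difference was not detectable at this depth (log2 interval −2.28 to 0.63).

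Among the INK4 genes, CDKN2A was the most abundant in both media. Its locus (chr9:21967753-21995301, minus strand, GRCh38) encodes both p16INK4A and the MDM2-binding protein ARF from different reading frames, and the counts per gene do not separate these. CDKN2A had 2761 counts in KSFM against 1228 in the special medium, or 213 and 140 TPM. It was 1.76-fold lower (1.65 to 1.89), short of the rule. Its neighbour CDKN2B, the gene of p15, which TGF-beta is known to induce, lies at chr9:22002903-22009363 and had 486 and 258 counts, a log2 ratio of −0.56. The antisense transcript of the same region, CDKN2B-AS1, had 59 and 38 counts (log2 ratio −0.28), and the strand setting of the counting is not given in the sources used here. CDKN2D, the gene of p19INK4D, had 161 and 87 counts and a log2 ratio of −0.54. CDKN2C, the gene of p18, was the exception with 223 and 260 counts, a log2 ratio of 0.57 (0.31 to 0.84). Its share of the summed INK4 TPM was 4.58% in KSFM and 9.63% in the special medium, while that of CDKN2A was 85.8% and 79.8%.

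**Figure D3:**
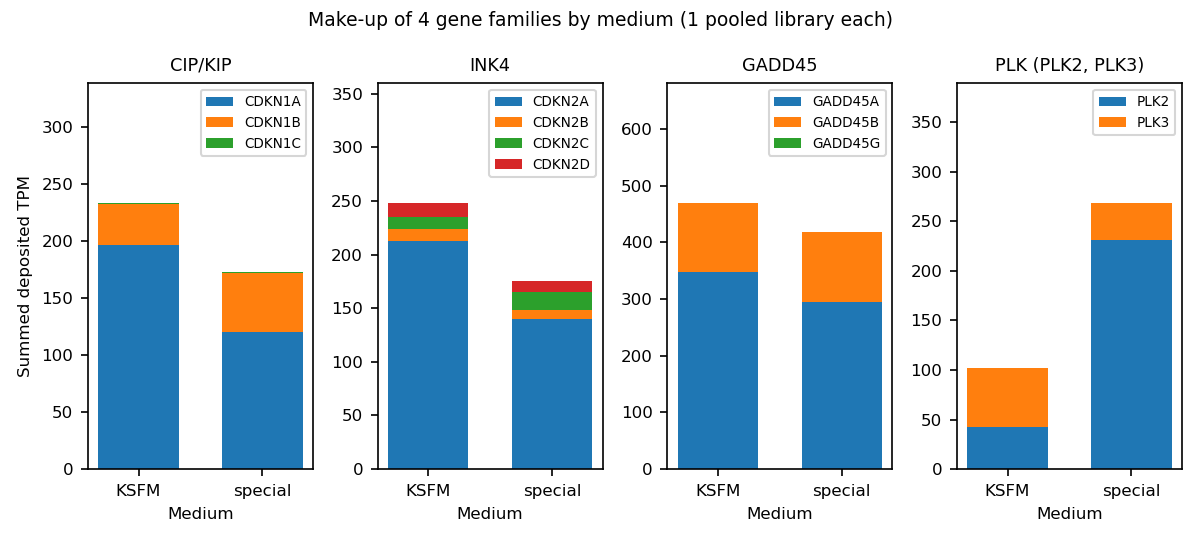
Summed deposited TPM (y axis) of the CIP/KIP, INK4 and GADD45 families and of PLK2 with PLK3 in each medium (x axis), stacked by gene; each bar is 1 pooled library and has no error bar. CDKN1A and CDKN2A make up most of the first pair of families in both media, and PLK2 takes the place of PLK3 as the larger of its pair in the special medium.

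The genes that restrain p53 itself were all within 2-fold. MDM2, the ubiquitin ligase that p53 induces, had 3521 counts in KSFM against 2698 in the special medium. Its ratio was 0.98 (0.93 to 1.03), which includes equality. PPM1D, the phosphatase WIP1 that dephosphorylates p53 and its kinases, had 498 and 403 counts and a ratio of 1.03 (0.90 to 1.18). MDM4, the MDM2 partner that masks the p53 activation domain, had 1045 and 657 counts and a log2 ratio of −0.32. CCNG1, cyclin G1, which recruits a phosphatase to MDM2, was the most abundant of this role at 80.9 and 112 TPM, with 2249 and 2173 counts and a ratio of 1.23 (1.16 to 1.31). None of the 4 passed the rule, and on deposited TPM the ratio of MDM2 was above 1 (41.1 and 44.5 TPM).

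PLK2 had the largest ratio of the 39 genes. It encodes a polo-like kinase of centriole duplication, first described as a serum-inducible kinase and also a p53 target (ENSG00000145632, chr5:58453982-58460260, minus strand). PLK2 had 1374 counts in KSFM against 5192 in the special medium, or 42.7 and 231 TPM. It was 4.82-fold higher (4.54 to 5.12), above 97.6% of all genes tested. PLK3, a related stress-response kinase, went the other way with 1679 and 737 counts, 1.79-fold lower (1.64 to 1.95) and short of the rule. Of the TPM summed over this pair, PLK2 held 41.7% in KSFM and 86.0% in the special medium.

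The GADD45 genes encode small proteins that bind stress kinases, PCNA and CDK1. GADD45A was the most abundant of all 39 genes in both media, at 348 and 294 TPM from 5231 and 3031 counts, and was 1.35-fold lower (1.29 to 1.42) in the special medium. GADD45B, known to be induced by NF-kB and TGF-beta, had 1819 and 1286 counts and a log2 ratio of −0.15. On deposited TPM that ratio was above 1 (121 and 125 TPM). GADD45G had 7 counts in KSFM against 0 in the special medium and stayed below 1 CPM. The exact 95% interval of that difference starts at 1.13-fold lower and has no upper end. The antiproliferative genes BTG1 and BTG2 had ratios of 1.34 (1.26 to 1.44) from 1667 and 1756 counts and 1.15 (0.99 to 1.34) from 353 and 319. ZMAT3, a p53-induced RNA-binding protein gene that acts in splicing, had 476 and 213 counts and was 1.75-fold lower (1.49 to 2.07).

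**Figure D4:**
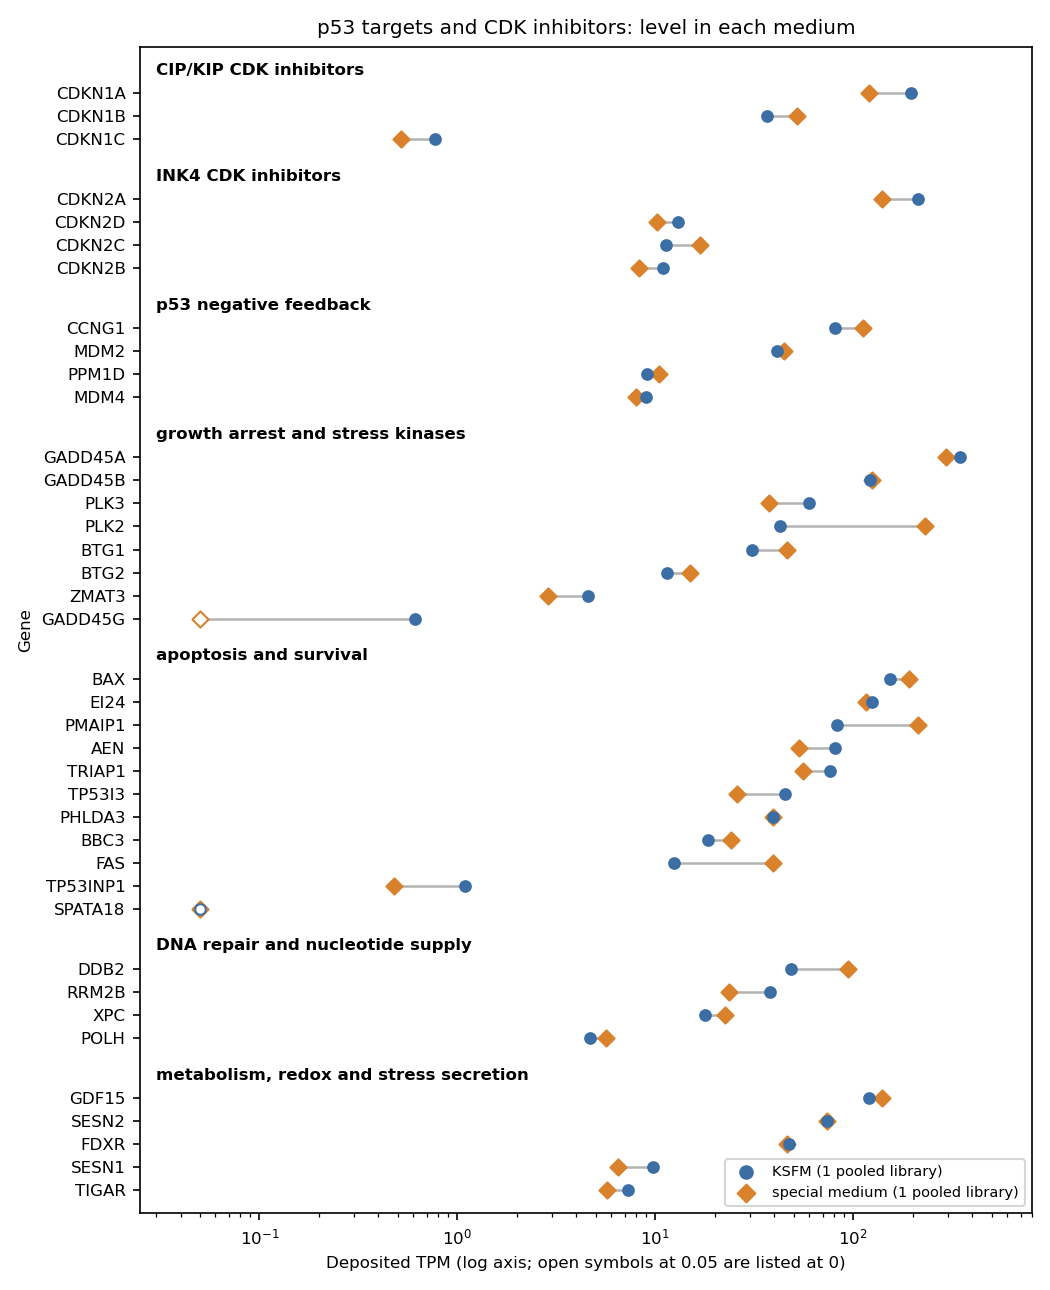
Deposited TPM (x axis, log scale) of all 39 genes (y axis, grouped by role) in KSFM (blue circles) and the special medium (orange diamonds), 1 pooled library each; open symbols at 0.05 stand for genes listed at 0. PLK2, FAS and PMAIP1 show the widest gaps with the special medium above, and GADD45A has the highest level in both media.

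The apoptosis genes contained 2 higher calls, FAS and PMAIP1, and the 1 lower call, TP53INP1. FAS, the death receptor gene (ENSG00000026103, chr10:88990582-89015785), had 376 counts in KSFM against 829 in the special medium, or 12.4 and 39.1 TPM. FAS was 2.81-fold higher (2.49 to 3.18). PMAIP1, which encodes the BH3-only protein NOXA (ENSG00000141682, chr18:59899948-59904306), had 1789 and 3182 counts, or 82.8 and 213 TPM, and was 2.27-fold higher (2.14 to 2.40). Both are known to respond to signals besides p53, among them interferon for FAS and ATF4 for PMAIP1. The other BH3-only gene, BBC3, the gene of PUMA, had 315 and 272 counts and a ratio of 1.10 (0.93 to 1.30). BAX, the pore-forming effector of the mitochondrial outer membrane and the most abundant of this role in KSFM, had 1350 and 1121 counts, 154 and 192 TPM, and a ratio of 1.06 (0.98 to 1.15). The intervals of FAS and PMAIP1 thus lay above those of BBC3 and BAX without meeting them.

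TP53INP1, a cofactor of p53 phosphorylation and autophagy, was the gene called lower. It rested on 71 counts in KSFM against 22 in the special medium, 2.53-fold lower (1.55 to 4.29), and its interval reaches inside 2-fold. With a filter of 10 CPM it was not tested, and on TPM with a pseudocount of 1 its log2 ratio was −0.50, which ends the call. TP53I3, the quinone oxidoreductase gene PIG3, lay just outside the rule with 796 and 321 counts, 45.3 and 25.8 TPM, 1.94-fold lower (1.71 to 2.22). AEN, a nuclease gene of p53-dependent apoptosis, had 2869 and 1318 counts, 80.9 and 53.2 TPM, and was 1.71-fold lower (1.60 to 1.82). TRIAP1, a small mitochondrial inhibitor of apoptosis, had 972 and 484 counts and a log2 ratio of −0.66. EI24, an endoplasmic reticulum protein gene of autophagy, had 3201 and 2063 counts and a log2 ratio of −0.28. PHLDA3, which competes with AKT for membrane lipids, had 974 and 730 counts and a ratio of 0.96 (0.87 to 1.05). SPATA18 had 0 counts in both libraries, which allows a level of up to 0.171 CPM in KSFM and, at the lower depth there, 0.218 CPM in the special medium (exact 95% upper limits).

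Genes of DNA repair and nucleotide supply pointed in different directions. DDB2, the damage sensor of global nucleotide excision repair, had 994 counts in KSFM against 1330 in the special medium, or 48.4 and 93.6 TPM. It was 1.71-fold higher (1.57 to 1.85), short of the rule. XPC, the other sensor of that pathway, had 762 and 674 counts and a ratio of 1.13 (1.02 to 1.25), and POLH, the translesion polymerase eta gene, 458 and 385 counts and a ratio of 1.07 (0.93 to 1.23). RRM2B, the p53-induced ribonucleotide reductase subunit that supplies nucleotides for repair, had 2158 and 935 counts, 38.1 and 23.5 TPM, and was 1.81-fold lower (1.68 to 1.96).

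On scaled counts the metabolic and secreted targets lay at or below equality. On deposited TPM the ratios of GDF15 and SESN2 were above 1. GDF15, a secreted stress cytokine and the most abundant of this role, had 1564 counts in KSFM against 1235 in the special medium, 120 and 139 TPM, with a ratio of 1.01 (0.93 to 1.09). The sestrin genes, whose products restrain mTORC1, differed in level: SESN2 had 73.5 and 73.9 TPM and a log2 ratio of −0.16, and SESN1 9.77 and 6.49 TPM and a log2 ratio of −0.72. SESN1 rested on 328 and 156 counts and SESN2 on 2960 and 2083. TIGAR, a phosphatase that slows glycolysis, had 695 and 383 counts and was 1.42-fold lower (1.25 to 1.62). FDXR, a mitochondrial reductase gene, had 1000 and 671 counts and was 1.17-fold lower (1.06 to 1.29).

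Regulators and relatives of p53 were read from a list of 25 genes, of which 24 reached 1 CPM, 1 was called higher and 0 lower, with a median log2 ratio of 0.0090. Both counts are below the shares of all genes (9.86% and 6.77%). The gene called was USP28, a deubiquitinase that acts with 53BP1 toward p53, at 551 and 974 counts and 2.25-fold higher (2.03 to 2.51). TP63, the p53 relative of basal epithelial cells, stayed below 1 CPM with 5 and 13 counts. TP73, the other relative, had 559 and 491 counts and a ratio of 1.12 (0.99 to 1.27).

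A further 57 p53 targets outside the 39 were listed, 56 of them measured, with 6 higher and 2 lower and a median log2 ratio of 0.29. The higher count is near the share of all genes (9.86%) and the lower one is below it (6.77%). On TPM the counts were 10 and 0 with a pseudocount of 1 and 11 and 0 with 0.1, and with a filter of 10 CPM none was lower. Once TPM ratios with a pseudocount of 1 were centred on the median of all genes, the counts were 4 and 0. The higher ones were led by IGFBP3, a secreted binder of insulin-like growth factors, at 83 and 433 counts and 6.65-fold (5.25 to 8.52). PRDM1, a transcriptional repressor of terminal differentiation, followed at 20 and 86 counts and 5.48-fold (3.34 to 9.42), and GRHL3, an epidermal barrier factor, had 47 and 88 counts and 2.39-fold (1.66 to 3.48). SFN, the gene of 14-3-3 sigma, which holds CDK1 in the cytoplasm and is abundant in keratinocytes, had 1330 and 5653 counts, 92.8 and 576 TPM, and was 5.42-fold higher (5.11 to 5.76). The 2 lower genes were the glutaminase gene GLS2, at 145 and 55 counts, and the actin regulator gene CYFIP2, at 203 and 72, both named after their values were seen.

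A group of 7 p53 targets that interferon is also known to induce was kept apart. Of these, 6 were higher and 0 lower, with a median log2 ratio of 1.36, where 9.86% of all genes were higher and 6.77% lower. The higher count fell to 5 of 7 after centring the TPM ratios (pseudocount 1). It was 5 of 6 measured genes when 10 CPM was required. Of the 7, 4 were higher when the interval had to lie wholly beyond 2-fold, and 2 under the 4-fold rule. XAF1, an antagonist of apoptosis inhibitors, had 79 and 616 counts and was 9.94-fold higher (7.86 to 12.7). CASP1, the inflammatory caspase gene, had 123 and 438 counts and 4.54-fold (3.71 to 5.59), TRIM22, an antiviral ubiquitin ligase gene, 49 and 129 counts and 3.36-fold (2.40 to 4.77), and TAP1, a peptide transporter subunit of antigen presentation, 962 and 1935 counts and 2.57-fold (2.37 to 2.77). The genes of this group share their inclusion on both grounds, and which signal goes with their ratios was not tested.

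The cyclins, CDKs and CDC25 phosphatases, a list of 15 genes, had 13 ratios above 1 and a median log2 ratio of 0.54, where 6811 of all 13632 genes had a ratio above 1. Of the 15, 2 were called higher and 0 lower, near the 9.86% of all genes called higher. CDC25B, a phosphatase that activates CDK1, had 1814 and 4040 counts and was 2.84-fold higher (log2 ratio 1.51, interval 1.43 to 1.59), and CDK1 had 2576 and 4545 counts and was 2.25-fold higher (2.14 to 2.36). Among 20 proliferation genes that p53 is known to repress through p21 and the DREAM complex, 2 were higher and 0 lower, close to the share among all genes (9.86%), and 17 had ratios above 1, with a median of 0.50. On uncentred TPM with either pseudocount 7 of these genes were higher. After centring the TPM ratios (pseudocount 1) on the median of all genes, 2 were higher. The mitotic kinase genes AURKA and PLK1 had 820 and 1718 counts and 639 and 1282 counts, 2.67-fold (2.46 to 2.91) and 2.56-fold (2.33 to 2.82) higher. In the list of RB, E2F and DREAM components, 2 of 19 were higher and 1 lower (median 0.11), near the shares of all genes (9.86% and 6.77%). On uncentred TPM with either pseudocount, none was lower, and after centring (pseudocount 1) 1 was. The pocket protein gene RBL2 and E2F5 were higher by 2.05-fold (1.92 to 2.19) and 2.10-fold (1.84 to 2.40). LIN52, a DREAM subunit gene, was 2.19-fold lower (1.95 to 2.46).

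Regulators of single inhibitors stayed within 2-fold, where 16.6% of all genes were called higher or lower. None of 12 genes of p27 turnover and transcription was called; the most abundant were CKS1B, a cofactor of p27 degradation, at 635 and 423 TPM and a log2 ratio of −0.81, and SKP1, at 349 and 286 TPM and −0.47. None of the 11 measured genes listed for Polycomb control of the INK4 locus, which include the antisense transcript CDKN2B-AS1, was called. The Polycomb genes RING1 and SUZ12 were the most abundant, with log2 ratios of −0.64 and 0.15. ATF4 and CHOP are stress factors that induce several genes described above independently of p53, among them SESN2, GDF15 and PMAIP1. A list of 15 ATF4, CHOP and other stress genes also held ERN1, XBP1, EIF2AK3 and ATF6. In it 3 were lower and 0 higher (median −0.54), where 6.77% of all genes were lower and 9.86% higher. On TPM with a pseudocount of 1, 2 were lower and 1 higher, and after centring 3 and 0. The lower count was 4 with upper quartile scaling, 2 with intervals wholly beyond 2-fold and 0 under the 4-fold rule. With the trend on effective length removed, 3 were lower and 1 higher. HERPUD1 had 4767 and 1374 counts, 2.72-fold lower (2.56 to 2.89), and TRIB3 14831 and 4818 counts, 2.41-fold (2.34 to 2.49). The stress sensor gene ERN1 had 619 and 212 counts, 2.29-fold lower (1.96 to 2.69). Of the 15, 11 had ratios below 1 and 4 above, among the latter ATF4 itself (log2 ratio 0.07) and ATF3 (0.44). Over all these lists 19 genes were higher and 6 lower of 179 measured on counts, the first near the 9.86% of all genes and the second below the 6.77%, against 31 and 2 on TPM with a pseudocount of 1, a scale that moves the median of all genes up by 0.15.

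**Figure D5:**
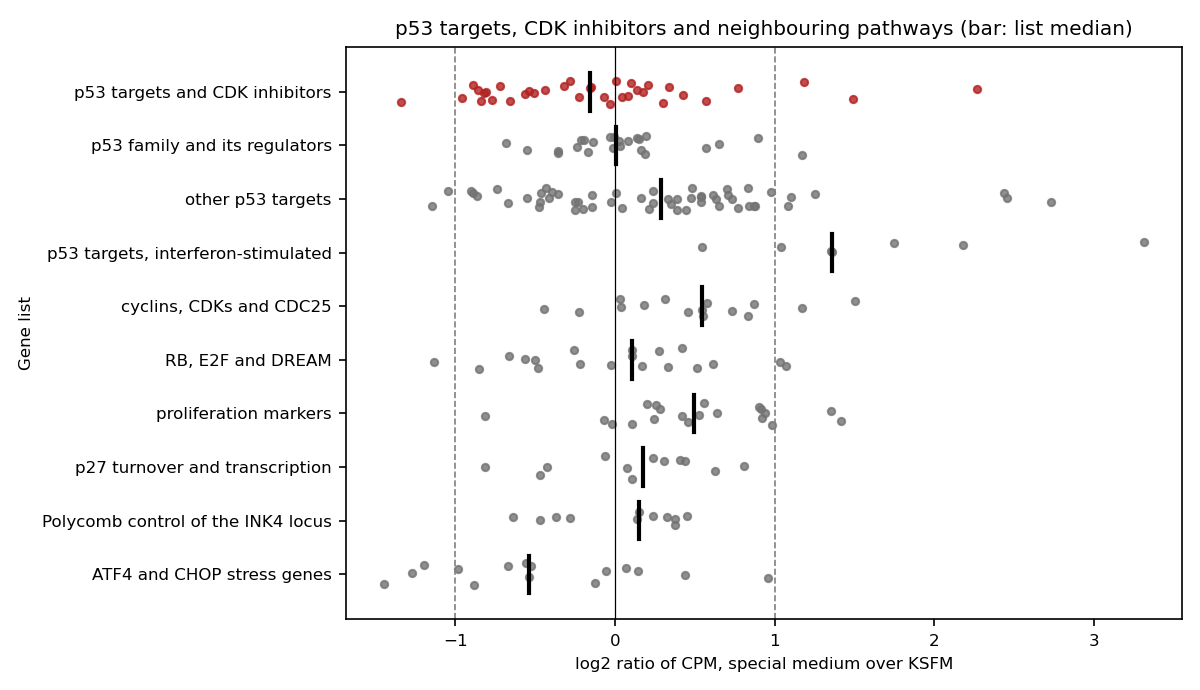
Log2 ratio of CPM (special medium over KSFM, x axis) of each measured gene in the p53 targets and CDK inhibitors (red) and in 9 lists of neighbouring pathways (grey; y axis, points spread vertically for sight); black bars are list medians and dashed lines mark 2-fold. The red row has its median at −0.15, the interferon-stimulated p53 targets at 1.36 and the list of ATF4, CHOP and other stress genes at −0.54.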

How the data were processed

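Poly(A) RNA of 1 pooled library per medium was measured, with libraries from a stranded kit per the labels. Per the submitters' processing notes, reads were handled with HISAT2 2.1.0, fastp 0.20.0, FastQC 0.11.9 and RSEM on GRCh38. Annotation, step order and strand setting: not given in the sources used here. Both deposited tables are by symbol and hold the authors' estimated counts, of which 11.3% (KSFM) and 8.05% (special medium) are fractional, and TPM as deposited by the authors.

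Estimated counts were rounded and scaled with edgeR 4.0.16 TMM factors. Given the total of a gene's counts in both libraries, the share in 1 library has an exact binomial (Clopper-Pearson, 95%) interval, which was turned into that of the ratio; the code was tested on simulated data. Without molecular identifiers reads are not independent molecules, and intervals and floors cover counting error alone; with 100 counts per library an interval reaches 0.41 to either side on the log2 scale, with 1000 counts 0.13. Alternatives were scaling by upper quartile, by total or by DESeq2 1.42.0 size factors, pseudocounts of 1 and 0.1 on TPM, other filters and folds, and a trend on effective length. Gene bounds come from GENCODE 29 (GRCh38) by Ensembl identifier. Software was Python 3.11.15 (scipy 1.17.1, numpy 2.4.6, matplotlib 3.10.9, pandas 2.3.3) and R 4.3.3.

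The genes, lists and tests were chosen with earlier results of these data known. By rule, full values are given for genes past the 2-fold rule, within 0.25 log2 units of it, or most abundant in a role, and from each list for up to 4 genes past the rule, else the 2 most expressed, with TP63 always; 1 further gene of the rule and its list is not reported here. Other genes were named after their values were seen.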

Additional observations from a re-analysis of the deposited data

How the results depend on the processing

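The 3 higher genes, PLK2, FAS and PMAIP1, were the same under every alternative run except the 4-fold rule, which left 1, PLK2. The number of genes called lower, 1 on scaled counts, was 0 on TPM with a pseudocount of 1, centred or not, 0 with a filter of 10 CPM, 0 with the 4-fold rule and 0 with intervals wholly beyond 2-fold, and 2 with no filter, which added GADD45G. The median log2 ratio of the genes turned from −0.15 to 0.0037 on TPM with either pseudocount, and was −0.15 again once TPM ratios were centred. Of 36 measured genes, 32 had the same sign under all scalings, TPM settings and the length correction; MDM2, GADD45B, SESN2 and GDF15 did not. In the neighbouring lists 19 higher and 6 lower genes became 31 and 2 (pseudocount 1) or 32 and 3 (pseudocount 0.1) on uncentred TPM. They were 16 and 4 once TPM ratios (pseudocount 1) were centred, and 5 and 0 with the 4-fold rule. The lower ones became 2 with intervals wholly beyond 2-fold. The cause of these shifts was not tested, apart from the stricter rules, which by construction call fewer genes. No paired analysis was possible because each medium has 1 pooled library, and no replicate could be left out. Depth limits CDKN1C, GADD45G, SPATA18 and TP53INP1.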

Other observations

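The ratio of estimated count to TPM gives a relative transcript length per gene in each library, which in RSEM is a mean over the gene's transcripts weighted by their estimated shares. What moves it between the libraries was not tested. Among 10690 genes with at least 100 counts in both libraries, 3.84% moved by more than 0.1 log2 units from the median shift. CDKN2C moved by 0.17 toward longer transcripts in the special medium and PHLDA3 by 0.10, the 2 p53 targets or CDK inhibitors beyond that bound. BBC3 and BAX moved by −0.08 and −0.07. For CDKN2C the log2 ratio of 0.57 on counts was 0.53 on TPM with a pseudocount of 1, a scale on which all genes lie 0.15 higher, and 0.38 once TPM ratios were centred. No other measure of its transcripts was used here. The estimated counts of 6 of the 39 genes were fractional in at least 1 library, among them MDM2, MDM4 and ZMAT3, as RSEM gives where reads align to more than 1 feature, so their levels are less certain.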
